A study of Mus musculus with 12 samples.

Results

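Ptpn13, Col5a1, Spon2, Rps6ka2, Tmem267, Syde2, Ahnak, Zmiz1, Gria3 and Rbm44 are 10 of the 55450 genes of the count table and of the 14346 that had enough counts to be tested. They were selected on the measured change along the Tet2 label, that is, on libraries of Tet2KO over WT and of dKO over Id1KO, with no numerical threshold. Those 2 comparisons are therefore given for them as a description without a test. The first 6 genes were lower and the last 4 higher in the libraries labelled Tet2-null.

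RNA was sequenced from mouse bone marrow cells of donor origin, sorted from recipients of competitive transplants as negative for lineage markers and positive for the receptor Kit, a gate that holds stem and progenitor cells. The 12 libraries comprise 3 labelled WT, 3 labelled Tet2KO, 3 labelled Id1KO and 3 labelled dKO, whose genotype label reads Tet2 KO + Id1KO. All cells of all groups had passed through a competitive transplant. The labels used here state no strain, sex, age or treatment, no allele or Cre line, and not how many recipients were pooled. By their titles, all 3 libraries of a genotype carry the same sample number, with suffixes whose meaning is not explained, and they may be repeats of 1 cell sample. The p-values below then measure only the spread between these libraries, which may be technical.

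Tet2 is a dioxygenase that oxidises methylated cytosine in CG dinucleotides, the first step of active demethylation, and its loss in blood stem cells is a frequent lesion of clonal hematopoiesis. Id1 lacks a DNA-binding domain and sequesters basic helix-loop-helix factors, which bind E-box sequences. The 10 genes share no single pathway. They encode a tyrosine phosphatase, matrix proteins, a kinase, regulators of the membrane and of small GTPases, a transcriptional coactivator, a glutamate receptor subunit and an RNA-binding protein of germ cells.

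Neither targeted gene bears out the labels, which are used below as names of the libraries only. Tet2 had a mean of 99.3 CPM (TMM-scaled counts, relative to the library total) with the label WT, 130 with Tet2KO, 92.0 with Id1KO and 118 with dKO, and Id1 had 1.47, 3.86, 3.96 and 3.93. Totals over a gene do not show the loss of a single exon. Total estimated counts were 15706407 to 19959183 per library. The progenitor genes Kit and Cd34 each had at least 4534 counts in every library. Cd3e, Ms4a1, Ly6g, Pdgfra and Cdh5, which define T cells, B cells, neutrophils, stroma and endothelium, had at most 3. Summed monocyte markers (Csf1r, Ly6c2, Cd68, Adgre1) spanned 692 to 723 CPM with the label WT, 956 to 991 with Tet2KO, 638 to 646 with Id1KO and 797 to 821 with dKO. Summed eosinophil markers (Prg2, Epx) were at 230 to 239, 188 to 192, 317 to 325 and 161 to 171 CPM in the same order. Summed neutrophil markers (Ly6g, S100a8, S100a9, Camp) were at 53.0 to 58.6, 73.6 to 78.0, 57.1 to 60.1 and 71.5 to 80.4 CPM. Monocyte, neutrophil and eosinophil sums thus moved with the Tet2 label, as the 10 genes do. The neutrophil gene Camp went against its sum, with log2 fold changes of -0.92 (edgeR adjusted p 0.00208) for Tet2KO over WT and -0.09 (0.818) for dKO over Id1KO. The sum of 5 progenitor genes (754 to 756, 830 to 850, 661 to 669 and 684 to 700 CPM) rose with the Tet2 label within each Id1 label. So did that of 3 dendritic cell genes (2.75 to 3.56, 5.53 to 6.97, 3.46 to 4.5 and 4.75 to 5.26 CPM). The erythroid genes Klf1, Epor and Hba-a1 were lower with Tet2KO than with WT, by log2 fold changes of -0.8, -0.91 and -0.78 (edgeR adjusted p 1.27e-11, 1.24e-09 and 4.45e-05). For dKO over Id1KO they had -0.1 (edgeR adjusted p 0.079), -0.18 (0.0359) and 0.7 (9.14e-05). The part of all these markers in the values below was not tested. In bulk RNA, fewer cells of a type and less RNA per cell cannot be told apart.

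Promoter sequence is shown first, because Tet2 acts on cytosine in CG dinucleotides where it is methylated, and because these genes move together. RefSeq windows on GRCm38.p6, running from 250 bases before to 50 after a start site, were present for 7 of the 10 genes, with a pair of windows for Tmem267. Spon2, Gria3 and Rbm44 had none. The 4 windows printed here are those of 3 genes of the lower group, including the window with the most CG dinucleotides, and of Ahnak from the higher group, which has the highest CPM in WT of the genes with a window there, not corrected for length. Capitals mark each CG dinucleotide.
Ptpn13 (chr5:103424942-103425241, plus strand): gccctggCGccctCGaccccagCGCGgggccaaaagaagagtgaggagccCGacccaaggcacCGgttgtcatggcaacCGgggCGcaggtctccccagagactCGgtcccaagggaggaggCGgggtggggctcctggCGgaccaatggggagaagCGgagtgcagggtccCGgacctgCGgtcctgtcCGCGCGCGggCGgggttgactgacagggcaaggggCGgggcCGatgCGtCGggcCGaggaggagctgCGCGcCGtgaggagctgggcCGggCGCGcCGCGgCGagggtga
Col5a1 (chr2:27886175-27886474, plus strand): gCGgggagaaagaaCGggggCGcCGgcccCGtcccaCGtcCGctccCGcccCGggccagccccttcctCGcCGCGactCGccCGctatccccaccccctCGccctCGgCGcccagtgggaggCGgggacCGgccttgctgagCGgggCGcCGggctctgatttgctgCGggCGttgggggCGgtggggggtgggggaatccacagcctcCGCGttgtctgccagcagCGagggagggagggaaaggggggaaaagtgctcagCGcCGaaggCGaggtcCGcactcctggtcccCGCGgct
Tmem267, downstream window (chr13:119488223-119488522, plus strand): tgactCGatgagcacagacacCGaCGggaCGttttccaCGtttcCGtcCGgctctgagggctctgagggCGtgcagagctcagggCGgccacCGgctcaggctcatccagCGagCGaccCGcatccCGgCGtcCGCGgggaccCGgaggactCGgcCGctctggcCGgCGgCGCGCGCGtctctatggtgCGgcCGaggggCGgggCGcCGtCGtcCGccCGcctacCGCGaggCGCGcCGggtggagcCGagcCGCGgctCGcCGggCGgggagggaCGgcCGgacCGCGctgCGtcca
Ahnak (chr19:8989034-8989333, plus strand): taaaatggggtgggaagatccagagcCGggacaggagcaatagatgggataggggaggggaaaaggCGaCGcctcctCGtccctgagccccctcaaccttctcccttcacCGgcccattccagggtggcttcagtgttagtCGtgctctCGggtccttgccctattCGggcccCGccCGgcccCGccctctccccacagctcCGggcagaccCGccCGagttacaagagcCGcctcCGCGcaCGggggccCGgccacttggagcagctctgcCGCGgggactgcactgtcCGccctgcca

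The Ptpn13 window holds 33 CG dinucleotides, that of Col5a1 34, the downstream window of Tmem267 50 and that of Ahnak 22. The windows not printed hold 24 (Rps6ka2), 22 (Tmem267, upstream), 39 (Syde2) and 26 (Zmiz1). All 8 lie above the median of 7 over 32851 windows, and between 76.9% and 99.1% of all windows hold fewer. The lower and the higher group both lie above the median, though the higher group has windows for only Ahnak and Zmiz1. The windows of Ptpn13, Col5a1 and Syde2 and the downstream window of Tmem267 hold more CG dinucleotides than those. Motifs were searched on both strands. The E-box CANNTG was present in 3 of the 8 windows (upstream Tmem267, Ahnak and Zmiz1) and in 72.3% of all windows. The GATA motif AGATAA, the RUNX motif TGTGGT and the PU.1 motif GAGGAAGT were in none of the 8, against 11.2%, 16.8% and 3.2% of all windows. These shares are over all windows, not over those of the tested genes alone. Whether the CG counts and motifs differ from those of other tested genes was not tested, and nothing on the Tet2 label is read from them. Methylation was not measured in these libraries.

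Levels per length placed the 10 genes over a wide range. In WT libraries Gria3 was the most abundant at 10.1 CPM per kb of exon, followed by Zmiz1 at 6.39, Ahnak at 5.57, Rps6ka2 at 5.47, Syde2 at 3.08, Spon2 at 2.72, Col5a1 at 2.31 and Tmem267 at 1.15. Ptpn13 at 0.461 and Rbm44 at 0.282 CPM per kb were the least abundant. The WT libraries overlapped between Ahnak and Rps6ka2 and between Syde2 and Spon2, and between no other neighbours in this order. In dKO libraries the order changed, and Tmem267 at 0.362 and Ptpn13 at 0.187 CPM per kb lay below Rbm44 at 0.873.

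**Figure D1:**
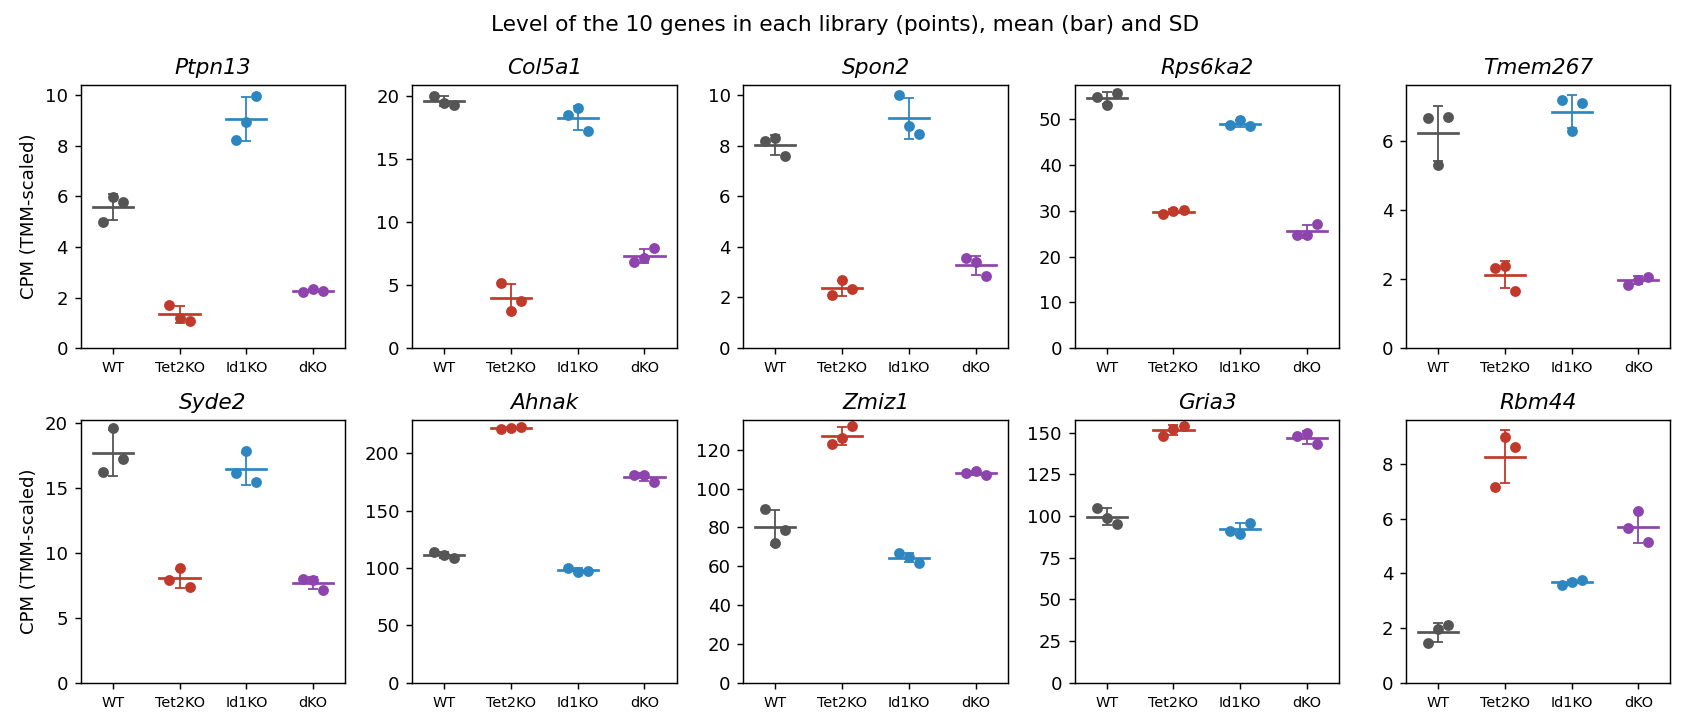
Level of each of the 10 genes in CPM (vertical axis, from 0) in the 12 libraries, by genotype label. Points are libraries in the order 1 to 3, the long bar is the mean and the whiskers the SD (n = 3); in every panel the Tet2KO and dKO points lie on one side of the WT and Id1KO points.

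In all 10 genes the 6 libraries labelled Tet2KO or dKO did not overlap the 6 labelled WT or Id1KO. This held for 8.56% of all genes tested (5.33% with the Tet2-null libraries above and 3.23% below), and since the genes were chosen on these libraries, nothing is read from their count. A gene is said to be called where its edgeR adjusted p is below 0.05. Among all genes tested, 32.8% were called when Tet2KO was set against WT (16.6% higher, 16.2% lower) and 19.3% with dKO against Id1KO (10.6% higher, 8.7% lower). In both comparisons and in one direction 9.41% were called, 6.21% higher and 3.2% lower.

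Among enzymes and regulators of the cytoplasm, Ptpn13 had the widest relative shift on the Id1KO background. Ptpn13 (ENSMUSG00000034573.14, chr5:103425192-103598303, GRCm38, plus strand, 49 merged exons) encodes a cytoplasmic tyrosine phosphatase with a FERM domain and PDZ domains. It was at 4.98, 5.98 and 5.78 CPM in the WT libraries 1, 2 and 3 and at 1.72, 1.19 and 1.08 CPM in Tet2KO. In Id1KO libraries it was at 8.24, 8.95 and 9.96 CPM and in dKO at 2.22, 2.33 and 2.24. The highest Tet2-null library was thus below the lowest of the others, and the Id1KO libraries stood above WT. Log2 fold changes were -2.08 ± 0.17 (SE) for Tet2KO over WT and -1.99 ± 0.14 in dKO against Id1KO, or 4.22-fold and 3.98-fold lower.

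Rps6ka2 (ENSMUSG00000023809.10, chr17:7170115-7303315, plus strand, 25 merged exons) encodes RSK3, a serine/threonine kinase of the RSK family. Its level, in the order of libraries 1, 2 and 3 here and below, was 54.8, 53.2 and 55.8 CPM with the label WT and 29.3, 30.0 and 30.2 CPM with Tet2KO. With Id1KO it was 48.7, 49.9 and 48.5 CPM and with dKO 24.7, 24.8 and 27.2 CPM. Levels within a genotype were close, and log2 fold changes were -0.87 ± 0.045 and -0.94 ± 0.047 in Tet2KO against WT and dKO against Id1KO. The value is uncertain, because exonic sequence of Rps6ka2 matches Sod2, the mitochondrial superoxide dismutase, over 3110 bp at 98.3% identity, and shorter stretches match other genes, 161 tested genes in all. Its estimated counts were not whole numbers in any of the 12 libraries, unlike those of the other 9 genes. Sod2 alone had log2 ratios of -0.17 and -0.03 in the same comparisons, and the sum of both genes went from 161 to 124 CPM (-0.37) and from 158 to 133 CPM (-0.25).

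Syde2 (ENSMUSG00000036863.12, chr3:145987870-146021720, plus strand, 8 merged exons) encodes an activator of GTP hydrolysis by small GTPases. Its level was 16.2, 19.6 and 17.2 CPM with the label WT, 7.90, 8.82 and 7.38 with Tet2KO, 16.1, 17.8 and 15.4 with Id1KO and 7.99, 7.90 and 7.15 with dKO. The WT and Id1KO libraries overlapped each other, as did the Tet2KO and dKO libraries. Log2 fold changes along the Tet2 label were -1.14 ± 0.094 and -1.1 ± 0.097. Tmem267 (ENSMUSG00000074634.12, chr13:119488039-119611059, plus strand, 5 merged exons) encodes a transmembrane protein. Its level was 6.69, 5.31 and 6.70 CPM with the label WT, 2.33, 2.38 and 1.67 with Tet2KO, 7.19, 6.30 and 7.10 with Id1KO and 1.84, 1.98 and 2.07 with dKO. Here too only the Tet2 label separated the libraries, with log2 fold changes of -1.56 ± 0.15 and -1.8 ± 0.15. Its exons overlap 162 bp of the antisense gene 3110070M22Rik, which had 0 to 12 counts per library, and no source used here tells whether counting used the strand.

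Both matrix genes were lower in the Tet2-null libraries. Col5a1 (ENSMUSG00000026837.15, chr2:27886425-28039514, plus strand, 66 merged exons) encodes the alpha 1 chain of type V collagen, which sets the diameter of collagen fibrils. Its level was 20, 19.4 and 19.3 CPM with the label WT and 5.15, 2.98 and 3.77 CPM with Tet2KO. With Id1KO it was 18.5, 19.0 and 17.2 CPM and with dKO 6.85, 7.12 and 7.92 CPM. All dKO libraries lay above all Tet2KO libraries. Log2 fold changes were -2.31 ± 0.12 for Tet2KO over WT and -1.32 ± 0.1 for dKO against Id1KO, or 4.95-fold and 2.49-fold lower. Spon2 (ENSMUSG00000037379.7, chr5:33198184-33218455, minus strand, 8 merged exons) encodes a secreted matrix protein, mindin. Its level was 8.19, 8.30 and 7.57 CPM with the label WT, 2.08, 2.68 and 2.32 with Tet2KO, 10, 8.79 and 8.47 with Id1KO and 3.55, 3.41 and 2.84 with dKO. Both Id1-null groups stood above their Id1-intact counterparts, and log2 fold changes along the Tet2 label were -1.76 ± 0.13 and -1.48 ± 0.12.

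Of the genes of the higher group, Ahnak was the one with the smallest SE. Ahnak (ENSMUSG00000069833.13, chr19:8989284-9076914, plus strand, 10 merged exons) encodes a very large scaffold protein beneath the plasma membrane. Its level was 114, 111 and 109 CPM with the label WT, 221, 222 and 223 with Tet2KO, 100, 96.2 and 97.8 with Id1KO and 181, 181 and 175 with dKO. The 4 genotypes occupied 4 separate ranges, in the order Id1KO, WT, dKO and Tet2KO. Log2 fold changes were 1.0 ± 0.028 for Tet2KO over WT and 0.87 ± 0.029 for dKO against Id1KO, or 2.0-fold and 1.83-fold higher.

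Zmiz1 (ENSMUSG00000007817.15, chr14:25459185-25666743, plus strand, 27 merged exons) encodes a coactivator related to the PIAS proteins that acts with Notch1. Its level was 89.4, 71.9 and 78.7 CPM with the label WT, 123, 126 and 132 with Tet2KO, 66.7, 64.6 and 61.9 with Id1KO and 108, 109 and 107 with dKO. WT library 1 stood above the other two, and the genotypes did not overlap. Log2 fold changes were 0.67 ± 0.052 and 0.75 ± 0.055. The antisense gene Zmiz1os1 shares 297 bp of its exons and had 4 to 11 counts per library.

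Gria3 (ENSMUSG00000001986.16, chrX:41400854-41678601, plus strand, 17 merged exons) encodes a subunit of AMPA glutamate receptors, which are best known from neurons. Its level was 105, 98.8 and 95.1 CPM with the label WT, 148, 152 and 154 with Tet2KO, 91.0, 89.1 and 95.9 with Id1KO and 148, 150 and 143 with dKO. Log2 fold changes were 0.6 ± 0.036 and 0.68 ± 0.037. Both Tet2-null groups shared one range, and the WT and Id1KO libraries overlapped. Gria3 is the only gene of the 10 on the X chromosome. Xist, the RNA that silences an X chromosome in female cells, spanned 252 to 272 CPM with the label WT, 9.89 to 12 with Tet2KO, 60.5 to 69.0 with Id1KO and 16.3 to 17.0 with dKO, and so also moved with the Tet2 label. The Y-linked Ddx3y was present in all 12 libraries, with means of 48.9, 87.7, 93.4 and 82.1 CPM in the same order, as were Eif2s3y (36.5, 43.1, 54.2 and 61.7), Kdm5d (29.8, 46.1, 40.6 and 43.9) and Uty (30.0, 48.3, 44.6 and 48.3). The part of the sex makeup of the libraries in the values of Gria3, or of any other of the 10 genes, was not tested.

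Rbm44 had the largest difference in size between the Id1 backgrounds. Rbm44 (ENSMUSG00000070732.2, chr1:91145089-91170795, plus strand, 16 merged exons) encodes an RNA-binding protein of the intercellular bridges of germ cells. Its level was 1.45, 1.96 and 2.11 CPM with the label WT and 7.17, 8.99 and 8.62 CPM with Tet2KO. With Id1KO it was 3.57, 3.69 and 3.74 CPM and with dKO 5.64, 6.29 and 5.14 CPM. The 4 genotypes did not overlap, and Id1KO and dKO lay between the other two. Log2 fold changes were 2.17 ± 0.15 for Tet2KO over WT and 0.63 ± 0.14 for dKO against Id1KO, or 4.49-fold and 1.55-fold higher.

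**Figure D2:**
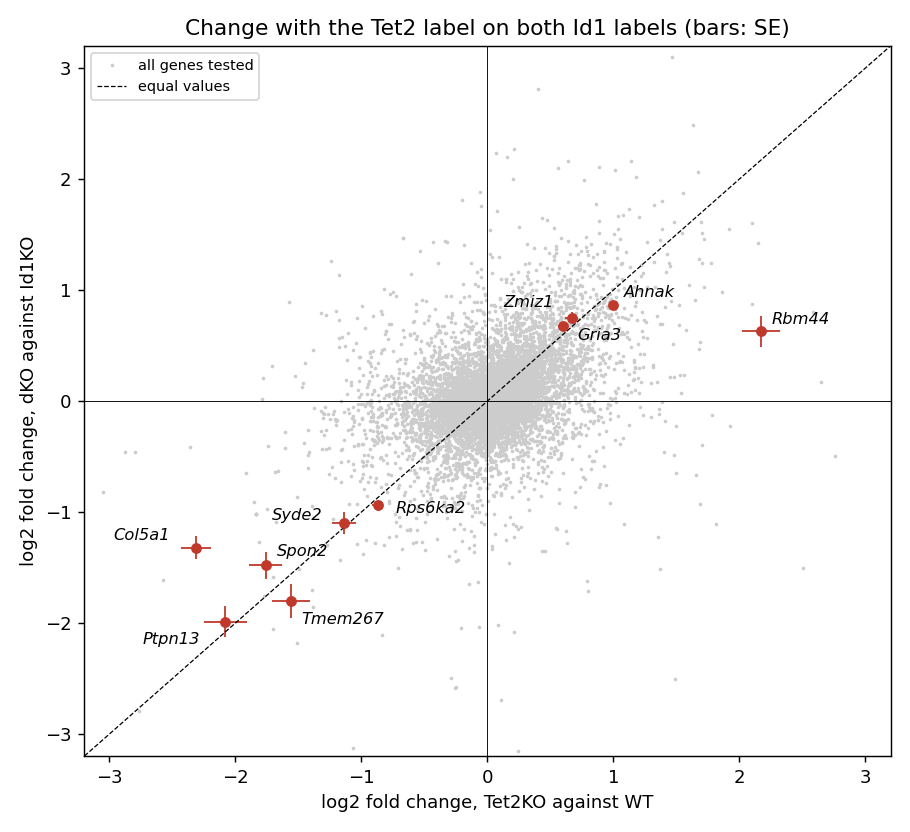
Log2 fold change in Tet2KO against WT (horizontal axis) and in dKO against Id1KO (vertical axis) for all genes tested (grey, of which 18 lie outside the axes) and the 10 genes (red, bars are SE). The dashed line marks equal values; Col5a1 (-2.31 and -1.32) and Rbm44 (2.17 and 0.63) lie farthest from it among the 10.

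Of the variance between the 4 genotype means on the log2 scale, the share along the Tet2 label was 99.4% for Tmem267 and Syde2, 98.3% for Gria3, 95.8% for Spon2, 95.7% for Rps6ka2 and 93.1% for Ahnak. It was 89.6% for Col5a1, 88.6% for Ptpn13, 87.2% for Zmiz1 and 76.1% for Rbm44, against 47.4% summed over all genes tested. The choice of the genes sets these shares high. The remainder differed in kind, since it lay along the Id1 label for Zmiz1 (12.6%) and Ptpn13 (11.4%) and along the interaction of the labels for Rbm44 (22.4%) and Col5a1 (6.49%).

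The Id1 label, averaged over both Tet2 labels, is the comparison that the choice of genes did not use, and asks whether the same genes also moved with Id1. By edgeR's quasi-likelihood test, adjusted over all 14346 genes, 7 of the 10 were called, 3 higher and 4 lower in the libraries labelled Id1-null. Over all genes tested 28.7% were called, 13.9% higher and 14.7% lower. The test shares its 12 libraries and estimates of spread with the Tet2 comparisons. It is thus not fully independent of the choice of genes. Ptpn13 rose by a log2 fold change of 0.74 ± 0.12 (SE), or 1.67-fold, with an edgeR adjusted p of 7.49e-05. Col5a1 rose by 0.39 ± 0.082 (edgeR adjusted p 0.00124) and Spon2 by 0.32 ± 0.094 (0.0136). These phosphatase and matrix genes all belong to the group that was lower with the Tet2-null labels. Ahnak had a log2 fold change of -0.25 ± 0.02 (edgeR adjusted p 2.15e-08), Zmiz1 of -0.27 ± 0.038 (1.8e-05) and Gria3 of -0.08 ± 0.026 (0.0299). Those 3 belong to the higher group, so 6 of the 7 genes called moved with the averaged Id1 label against their change with the Tet2 label. Rps6ka2 was the exception, with -0.19 ± 0.033 (edgeR adjusted p 0.00025) in the direction of its Tet2 change. The share of all genes tested with such opposite changes was not counted, so nothing is read from the 6. Among the 6, Col5a1 went against its Tet2 change only in dKO against Tet2KO (0.89), with -0.1 in Id1KO against WT. Of the cell type markers, 3 of 4 monocyte genes and 3 of 5 progenitor genes were called lower with the averaged Id1 label. Called higher were 2 of 3 megakaryocyte genes, 2 of 2 eosinophil genes and the erythroid Klf1 (0.37, edgeR adjusted p 6.57e-09), Epor (0.41, 6.59e-07) and Hba-a1 (0.54, 4.55e-05). The average hides differences between the Tet2 labels. Mean Prg2 was 187 CPM with WT and 253 with Id1KO, but 153 with Tet2KO and 131 with dKO. In the same order Epx had 46.4, 68.7, 36.8 and 35.6 CPM, and Itga2b 83.9, 111, 93.6 and 85.1. Pf4 was higher on both Tet2 labels, at 29.3, 51.5, 26.2 and 32.2 CPM. Klf1 had 71.0, 72.1, 40.7 and 67.4 CPM, and so rose mainly between Tet2KO and dKO. Hba-a1 had 10.6 CPM with WT and 9.24 with Id1KO. The part of these markers in these calls was not tested.

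The other 3 genes did not pass the test. Tmem267 had a log2 fold change of 0.02 ± 0.11 (edgeR adjusted p 0.935), Syde2 of -0.08 ± 0.069 (0.398) and Rbm44 of 0.23 ± 0.1 (0.107). With the 3 libraries of each genotype summed to 1 and both labels fitted as additive effects, none of the 7 calls was kept, with edgeR adjusted p from 0.359 to 0.654, and 7 genes were called in all. The call of Gria3 was also lost with DESeq2 (adjusted p 0.0581) and, in edgeR, without WT 1 (0.0943), Tet2KO 2 (0.0588), Tet2KO 3 (0.0783), Id1KO 1 (0.0681), Id1KO 2 (0.0803) or dKO 3 (0.0769).

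**Figure D3:**
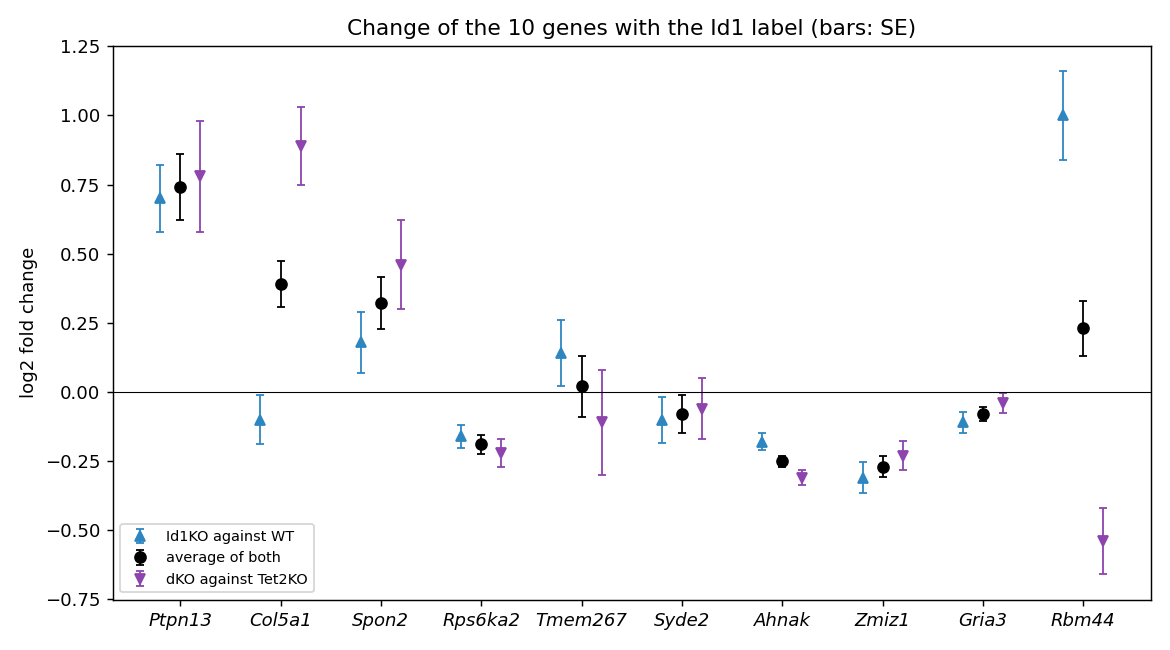
Log2 fold change (vertical axis) of the 10 genes with the Id1 label in Id1KO against WT (blue), in dKO against Tet2KO (purple) and averaged over both (black), with SE as bars. Ptpn13 lies above 0 and Ahnak and Zmiz1 below it in both comparisons, while Col5a1 and Rbm44 lie on opposite sides.

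Within each Tet2 label the values are a description, since these libraries also entered the choice. Ptpn13 had log2 fold changes of 0.7 ± 0.12 in Id1KO against WT and 0.78 ± 0.2 in dKO against Tet2KO. Spon2 had 0.18 ± 0.11 and 0.46 ± 0.16, Rps6ka2 -0.16 ± 0.042 and -0.22 ± 0.051, Ahnak -0.18 ± 0.03 and -0.31 ± 0.027, and Zmiz1 -0.31 ± 0.056 and -0.23 ± 0.051. In these 5 genes the libraries of the compared groups did not overlap and both comparisons had one direction, as in 11.3% of all genes tested. Tmem267 (0.14 ± 0.12 and -0.11 ± 0.19), Syde2 (-0.1 ± 0.083 and -0.06 ± 0.11) and Gria3 (-0.11 ± 0.038 and -0.04 ± 0.035) overlapped in both. Col5a1 had -0.1 ± 0.089 and 0.89 ± 0.14, and Rbm44 1.0 ± 0.16 and -0.54 ± 0.12. These 2 genes were separated in both comparisons with opposite directions, as in 4.0% of all genes tested. The 7 genes without overlap in Id1KO against WT compare with 32.7% of all genes, and the 7 in dKO against Tet2KO with 39.9%.

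The 10 genes followed each other closely over the 12 libraries on the log2 scale. Pearson's r was 0.84 to 0.97 (median 0.95) over the 15 pairs of genes of the lower group, 0.71 to 0.98 (median 0.9) over the 6 pairs of the higher group and -0.99 to -0.76 (median -0.93) over the 24 pairs between them. The points share libraries and genotype steps, and the genes were chosen for one of those steps.

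For each gene the 2 most alike others were taken by the same measure, with r between 0.97 and 0.99 over 12 libraries. Hoxa9, a homeobox factor of progenitors, was among them for Rps6ka2, Tmem267 and Syde2, with means of 23.8, 13.9, 23.4 and 12.4 CPM in the order WT, Tet2KO, Id1KO and dKO. Nop10, a component of H/ACA ribonucleoproteins, was among them for Ptpn13 and Spon2, at 106, 96.8, 108 and 98.2 CPM. Its pattern was alike in shape and far smaller in size. Ccnd1, which encodes cyclin D1, was the other for Spon2, at 33.7, 16.4, 33.0 and 17.4 CPM. The remaining ones in the lower group were Cycs for Ptpn13, Aqp9 and Prelid2 for Col5a1, Olr1 for Rps6ka2, Vegfa for Tmem267 and Acaa2 for Syde2. In the higher group they were Rel and Psap for Ahnak, Kmt2e and Il6ra for Zmiz1, Cbl and Arhgap17 for Gria3, and Anxa1 and Ankfy1 for Rbm44. Rel, an NF-kB subunit, had means of 17.9, 27.2, 16.5 and 23.9 CPM, and Cbl, a ubiquitin ligase for activated receptors, 120, 174, 110 and 163 CPM, in the order WT, Tet2KO, Id1KO and dKO. Anxa1 shared with Rbm44 the intermediate position of the Id1-null libraries, at 99.2, 173, 124 and 151 CPM.

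The nearest tested genes on either side of each of the 10 were compared with them, 20 neighbours in all at gaps of 0 to 2714684 bp. In Tet2KO against WT 11 of the 20 were called by edgeR, against 32.8% of all genes, and in dKO against Id1KO 5, against 19.3%. In both and in one direction 2 of the 20 were called, against 9.41%, and neither moved in the direction of its neighbour among the 10. That count is near the share over all genes, so nothing is read from it. In dKO against Id1KO, 4833420G17Rik, 1919 bp from Tmem267, was lower like it (-0.53, edgeR adjusted p 6.73e-09). Mcoln2 beside Syde2 (-0.61, 0.0207) and Gm1604a beside Rps6ka2 (-1.16, 0.00984) were lower as well. In Tet2KO against WT these genes had 0.16 (0.00215), 0.03 (0.92) and -0.56 (0.118). Arhgap24 and Ppif, the others called in dKO against Id1KO, moved against Ptpn13 and Zmiz1. Arhgap24, a GTPase-activating protein gene 527255 bp from Ptpn13, was higher by 0.59 ± 0.21 (SE, edgeR adjusted p 0.0394) and 1.09 ± 0.23 (0.00208). Ppif, the gene of mitochondrial cyclophilin 27411 bp from Zmiz1, was lower, with log2 fold changes of -0.12 ± 0.041 (edgeR adjusted p 0.0355) and -0.16 ± 0.04 (0.00703). Gm47920, on the other side, overlaps the span of Zmiz1 on the same strand. It moved in the direction of Zmiz1, by 0.41 ± 0.13 (edgeR adjusted p 0.0211) and 0.38 ± 0.13 (0.0545), the latter just above the threshold. At Ahnak the neighbours Eef1g and Asrgl1 lay 10805 and 32954 bp away, with log2 fold changes of -0.05 and -0.02 in Tet2KO against WT, where Ahnak had 1.0.

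**Figure D4:**
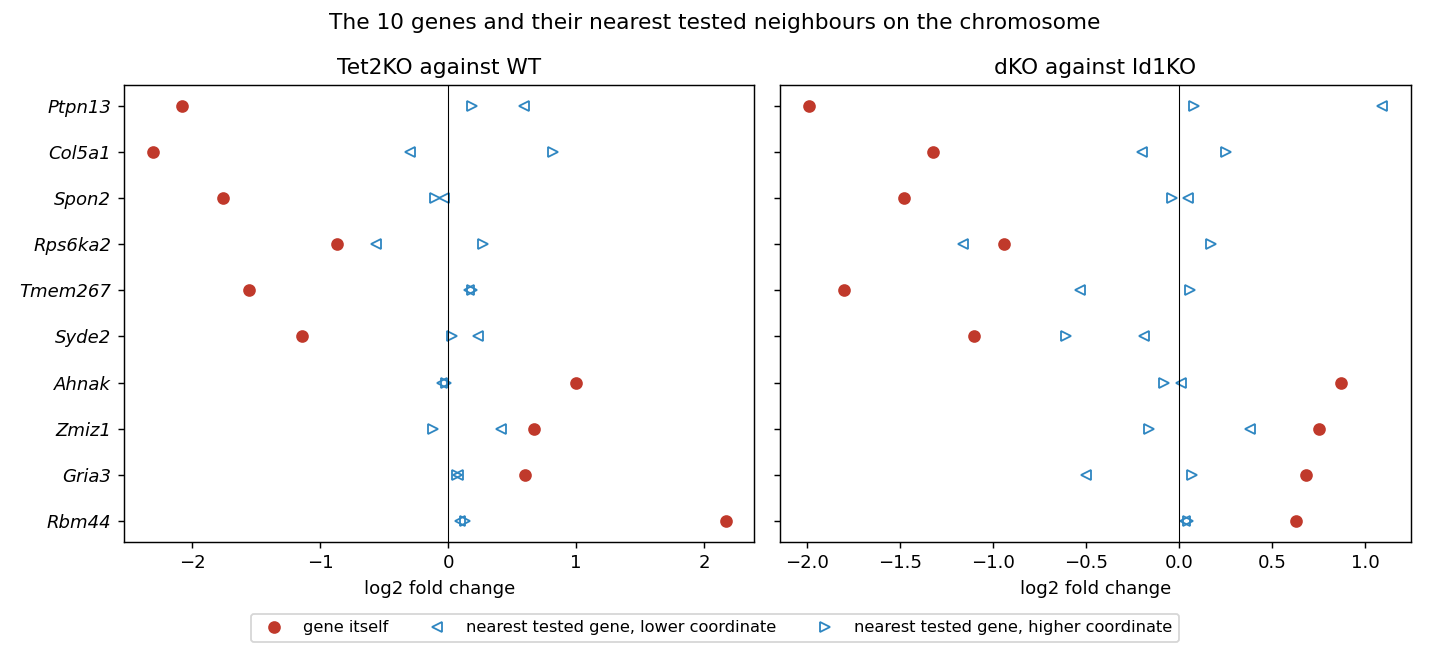
Log2 fold change (horizontal axes) of the 10 genes (red points) and of the nearest tested gene at lower and at higher coordinates (blue triangles) in Tet2KO against WT (left) and dKO against Id1KO (right). None of the 20 neighbours was called in both comparisons in the direction of its member of the 10. Of all genes tested, 6.21% were called higher and 3.2% lower in both. Some neighbours lie on their member's side of 0, such as Gm1604a beside Rps6ka2 (-0.56 and -1.16) and Gm47920 at Zmiz1 (0.41 and 0.38).

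Relatives and partners of the 10 genes were read from lists drawn up by family. Of the 4 other tyrosine phosphatases with a FERM domain, all tested, Ptpn14 was lower in both Tet2 comparisons, with log2 fold changes of -0.64 (edgeR adjusted p 5.2e-05) and -0.33 (0.02), while the median of the 4 was -0.06 and -0.11, against 0.0 over all genes. Ptpn3 was lower in dKO against Id1KO (-0.38, edgeR adjusted p 0.00504) and had -0.18 (0.137) in the other comparison, Ptpn21 was higher in Tet2KO against WT (0.3, 0.0204), and Ptpn4, at 36.7 CPM in WT the most abundant of them, had 0.07 and 0.1. Of 10 other fibrillar collagen genes 4 were tested (Col1a2, Col5a3, Col11a2 and Col27a1), and none was called in either comparison. Col11a2, at 10.7 CPM in WT, had log2 fold changes of -0.1 and -0.1, where Col5a1 had -2.31 and -1.32. Col5a3 had 0.26 and 0.11 at 1.44 CPM in WT, and Col1a2 0.45 and -0.61 at 0.734 CPM. The spondin gene Spon1 and the other AMPA receptor genes Gria1, Gria2 and Gria4 were too low to be tested, with sums of at most 0.165 and 0.055 CPM per library.

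Among relatives of Rps6ka2, Rps6ka3, which encodes RSK2, was higher in both Tet2 comparisons, by 0.27 (edgeR adjusted p 6.32e-06) and 0.12 (0.0158), opposite to Rps6ka2. Rps6ka4, which encodes MSK2, was lower in Tet2KO against WT (-0.27, edgeR adjusted p 0.0175) and had -0.14 (0.236) in the other comparison. Rps6ka5, which encodes MSK1, was higher in the first (0.33, edgeR adjusted p 2.36e-06) and had 0.09 (0.15) in the second. Rps6ka1, the most abundant at 273 CPM in WT, had 0.07 (0.0865) and 0.11 (0.0146). Pdpk1, which encodes the kinase PDK1, had 0.01 and -0.02. S100a10, whose product joins annexin A2 and binds Ahnak, was higher in both comparisons, by 0.31 (edgeR adjusted p 1.24e-05) and 0.15 (0.0201). Anxa2, which encodes annexin A2, had 0.18 (edgeR adjusted p 0.00121) and 0.07 (0.282), and Ahnak2 was not tested. Both S100a10 and Anxa2 were lower with the averaged Id1 label, with -0.19 (edgeR adjusted p 7.53e-05) and -0.17 (0.000114), the direction in which Ahnak moved.

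The paralog Zmiz2 was higher in both Tet2 comparisons, by 0.23 (edgeR adjusted p 0.00629) and 0.36 (0.000321), and of the 4 PIAS genes Pias1 was higher in Tet2KO against WT (0.14, 0.0316), while Pias2 had 0.02 and 0.0. Notch1, the receptor with which Zmiz1 acts, had means of 102, 138, 98.4 and 121 CPM in the order WT, Tet2KO, Id1KO and dKO. It was higher by 0.43 (edgeR adjusted p 3.7e-08) and 0.29 (1.27e-05), and Maml1, a coactivator of the Notch complex, by 0.33 (0.000527) in the first comparison, with -0.03 (0.822) in the second. The Notch targets Hes1 and Nrarp did not pass in either, with -0.84 and -0.22 for Hes1 and -0.48 and -0.43 for Nrarp, and Rbpj had 0.03 and -0.01. Syde1 had -0.27 and 0.29 at 2.16 CPM in WT, and did not pass. Of 14 germ cell genes 3 were tested, and none was called in both comparisons. Tex14, whose product organises the bridges that hold Rbm44, was not tested. Ddx4, the germ cell helicase, had means of 1.19 CPM with the label WT and 0.616 with Tet2KO (log2 fold change -0.93, edgeR adjusted p 0.0267), a direction opposite to that of Rbm44. Cep55, a gene of cell division, had 0.08 and 0.11, and Tdrkh -0.33 (edgeR adjusted p 0.0388) and 0.26 (0.166).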

How the data were processed

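Stranded libraries were made from ribosome-depleted total RNA after purification on micro columns, per the labels' protocols. STAR, RSEM and mm10 are named in the submitters' processing notes; versions, annotation and strand setting are not given in the sources used here. The authors deposited estimated counts per gene, not normalized, for 12 libraries. They were rounded. All 55450 identifiers matched GENCODE M21, which gave positions and exonic lengths.

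The 10 genes and all lists were chosen with earlier results of these data known. Named beyond the 10 were Tet2, Id1, the sex-linked genes Xist, Ddx3y, Eif2s3y, Kdm5d and Uty, neighbours called in both Tet2 comparisons, the 2 most alike genes, and from each family list those called in both Tet2 comparisons and the 3 most abundant. Other names were chosen after their values were seen, and 2 list genes, with the list results that need them, are not reported here.

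Genes passing edgeR's filterByExpr (minimum count 10) were scaled by TMM and fitted across all genes by edgeR's quasi-likelihood model, with 1 mean per genotype and all 12 libraries in 1 fit. Two-sided tests were adjusted by the Benjamini-Hochberg method, with a threshold of 0.05. Robust estimation of the spread was run first, and the default was adopted after its results were seen, to follow an earlier processing of the table. The common biological coefficient of variation was 0.0305. All 12 pairs of libraries within a genotype differed by more than sampling noise (chi-square per degree of freedom 1.524 to 5.35). WT 1 and dKO 2 were farthest from their groups. All libraries were therefore kept apart, though the check cannot tell repeats of 1 cell sample from separate samples. Correlations used log2 CPM with 0.5 added. Similar genes were sought with blast at 95% identity over at least 100 bp. Alternatives were RLE and upper quartile scaling, no filter, DESeq2, a replicate block, robust estimation, each library left out, and libraries summed per genotype. The software was edgeR 4.0.16 and DESeq2 1.42.0 under R 4.3.3, with pandas 2.3.3 and matplotlib 3.10.9 under Python 3.11.15, and blast 2.17.0.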

Additional observations from a re-analysis of the deposited data

Results flagged for a closer look

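Col5a1 and Rbm44 moved with the Id1 label in opposite directions on the 2 Tet2 labels, with every library of one group apart from every library of the other. Col5a1 had a log2 fold change of -0.1 in Id1KO against WT and 0.89 in dKO against Tet2KO. The first is close to its SE of 0.089, and the libraries nearest to each other were at 19.0 CPM in Id1KO and 19.3 in WT. Rbm44 had 1.0 in Id1KO against WT and -0.54 in dKO against Tet2KO, from 1.84 to 3.67 CPM and from 8.26 to 5.69 CPM. The difference was not tested for either gene, since the choice of the genes used the same libraries. With 3 libraries per genotype, Dixon's test for a single outlying library was not applied.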

How the results depend on the processing

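As reported, 4699 genes were called in Tet2KO against WT, 2762 in dKO against Id1KO and 4113 with the averaged Id1 label. With libraries summed per genotype and additive labels, which tests the Tet2 label once over both backgrounds and has fewer samples, the counts were 232, 232 and 7. Leaving out each library in turn gave 3811 to 4979, 2116 to 2826 and 3591 to 3929. Robust estimation gave 4852, 2946 and 4232 with the same 7 of the 10 genes called, and DESeq2 3592, 1901 and 3009. A replicate block on the suffix numbers gave 4523, 2576 and 3912, and the 7 calls were kept. Deviations of same-numbered libraries correlated at -0.0972 to 0.113, so the numbers were not taken to pair them. No direction of a called value among the 10 genes was reversed under the 19 alternatives. Those that ended calls were the summed fit for all 7, and for Gria3 also DESeq2 and 6 of the fits without a library. In the summed fit the 1 value over both backgrounds was -1.79 for Col5a1, 0.94 for Ahnak and 1.37 for Rbm44. Ptpn13, Spon2, Tmem267 and Rbm44 had few counts in some genotypes, which limits the precision of their ratios.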
